A study of Mus musculus with 65 samples.

Results

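The most ventral and the most dorsal progenitors of the differentiation were set side by side: p3 neural progenitors (NPs) against p0-1 NPs on days 5 and 6. Members were every library of those days whose column name gave one of the 2 cell types, which is 23 of the 65 libraries of the series, 11 of p3 and 12 of p0-1. All came from 1 mouse embryonic stem (ES) cell line, HM1, kept on feeder cells with LIF. To make NPs, the line was taken off LIF and given bFGF with LGK, an inhibitor of Wnt secretion, then bFGF, the Wnt agonist CHIR99021, the activin and Nodal receptor inhibitor SB-431542 and the BMP receptor inhibitor DMH1, and from day 3 onward retinoic acid (RA) with or without SAG, a small-molecule agonist of Smoothened that stands in for Sonic hedgehog (Shh). The p3 libraries came from dishes with 100 or 500 nM SAG and the p0-1 libraries from dishes with 0 or 10 nM. No SAG concentration held both types, so cell type and SAG concentration cannot be told apart in any p3 against p0-1 value below. Every group had 3 libraries on each day except p3 at 500 nM on day 6, which had 2. The series describes its triplicates as independent differentiations. They share the 1 ES line, so p-values do not cover the spread between lines. Whether libraries of equal replicate number came from the same differentiation is not given in the labels. The main fit treats the 23 libraries as independent.

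In CaTS-RNA-seq, dishes are fixed with formaldehyde, stained for intracellular proteins and sorted by flow cytometry before polyadenylated RNA is read. The gate for p3 was SOX2+ NKX2.2+ OLIG2- and the gate for p0-1 was SOX2+ PAX6+ NKX6.1-. Values are normalised read counts, which the authors obtained by dividing the reads of each gene by 1 factor per library.

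Shh, secreted from the notochord and the floor plate, patterns the ventral neural tube. Cells answer to its level and duration with transcription factors that repress one another across boundaries, and each resulting domain makes its own neurons: p3 makes V3 interneurons, pMN motor neurons, p2 V2 interneurons, and p1 and p0 make V1 and V0 interneurons. Ligand binding to Patched frees Smoothened, and GLI proteins then switch from repressors to activators. In the hindbrain the ventralmost NKX2.2 progenitors also make visceral motor neurons.

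The p3 libraries held 9641634 to 13175196 reads assigned to genes and the p0-1 libraries 8646849 to 12383601. Genes detected ranged from 10338 to 14088 in p3 and from 11686 to 13833 in p0-1, and 2 p3 libraries, replicate 2 at 100 nM on both days, were under 11000. Without those 2 libraries 151 genes were called, against 128 with all 23.

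The genes of the sorting proteins check the gates and are no finding. Nkx6-1 read 361 to 893 (median 565) in p3 and 0 to 67.5 (median 0) in p0-1, and Pax6 read 10.2 to 717 (median 157) in p3 and 1989 to 6208 (median 2771) in p0-1. Sox2 read 1222 to 2480.3 (median 1972) in p3 and 975 to 2966 (median 1833) in p0-1. One sorting gene went against its gate: although p3 cells were gated as OLIG2-, Olig2 RNA ran 0 to 1741 (median 769) in p3 and was at 0 in 1 of the 11 p3 libraries, replicate 2 at 100 nM on day 6. Among p0-1 libraries, replicate 3 at 10 nM on day 5 stood apart with 103 counts of Olig2, 138 of Foxa2 and 30.5 of Shh. In these sorted bulk samples, fewer cells expressing a gene and less RNA per cell cannot be told apart.

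A gene was called when limma's moderated test, fitted over all 13706 genes with a mean of at least 10 normalised counts and with day as a term, gave a Benjamini-Hochberg adjusted p below 0.01 together with a change over 2-fold. Changes are differences of log2(normalised count + 1), p3 minus p0-1, so a positive value is higher in p3. Under this rule 128 genes were called (0.934% of those tested), 86 higher in p3 (0.627%) and 42 lower (0.306%). At an unadjusted p below 0.05 there were 2011 genes (14.7%). The median change over the tested genes was -0.09, and the median 95% interval reached 1.36 to either side of the estimate. That interval is not adjusted for the number of genes tested, while a call needed an adjusted p below 0.01. A typical gene could therefore differ by clearly more than 1.36 and still go uncalled.

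Many of the called differences were large: 39 of the higher and 19 of the lower genes moved over 16-fold, while 35 and 13 stayed under 4-fold. All 128 kept their sign on day 5 alone and on day 6 alone, which was nearly given, as the same libraries had chosen them. In 34 tested genes (0.248%) no p3 library overlapped a p0-1 library, 22 with all p3 libraries above (0.161%) and 12 with all below (0.0876%). Of these 34, 32 were called. A call survived every one of the 38 alternative settings and left-out libraries for 11 genes: Nkx2-2, Nkx2-9, Ntn1, Ptch1, Col18a1, Ckb and Kbtbd11 among the higher, and Pax6, Dbx1, Scube2 and Gja1 among the lower. Nkx2-2 and Pax6 of these are genes of sorting proteins, so their calls check the gates. The 128 hold 3 higher sorting genes and 1 lower. With p3 at 100 nM set against p0-1 at 10 nM alone, the closest SAG pair, 15 genes were called. With 500 against 0 nM alone 42 were called. All 128 kept their sign in both, again in libraries that had taken part in choosing them.

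**Figure D1:**
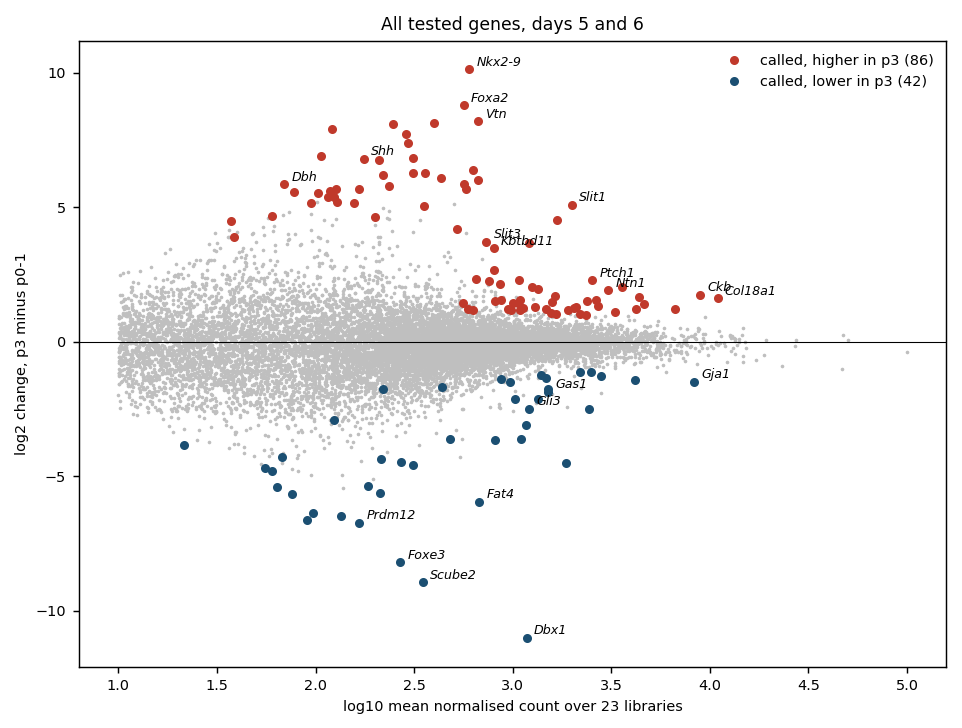
Every tested gene, with the log10 mean normalised count over the 23 libraries on the x axis and the log2 change of p3 minus p0-1 on the y axis; grey points were not called. The 86 genes higher in p3 are red and the 42 lower genes blue, and the labelled Dbx1 at -11.01 and Nkx2-9 at 10.13 are the called genes farthest from 0.

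The ventral transcription factors had the highest median change of the lists compared. Of 8 listed factors, all tested, 6 rose in p3 and none fell, with a median change of 7.82 against -0.09 over all tested genes. Nkx2-2 and Nkx6-1 among them had set the gates, as NKX2.2+ for p3 and NKX6.1- for p0-1, and the median includes them. Olig2 also rose, although p3 was gated as OLIG2-. The others that rose were Nkx2-9, Nkx6-2 and Foxa2.

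Nkx2-9 (chr12:56611397-56613284, mm10) encodes an NK2 homeodomain factor closely related to NKX2.2 and lies on another chromosome. Its normalised count ran 505 to 2394 (median 1135) in p3 and was 0 in all 12 p0-1 libraries. Against a floor of 3 reads per p0-1 library, it was at least 432-fold higher in p3 (adjusted p = 4.89e-12). Its protein was not among those stained for the sort.

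Foxa2 (chr2:148042877-148046969) encodes a forkhead pioneer factor of the floor plate and endoderm. Its count ran 232 to 3100.3 (median 907) in p3 against 0 to 138 (median 0) in p0-1 (log2 change 8.79, SE 0.88, adjusted p = 1.79e-07). The lowest p3 library was above the highest p0-1 library, and 10 of the 12 p0-1 libraries were at 0. Its relative Foxa1 read 0 to 552 (median 71.6) in p3 and 0 to 119.8 (median 0) in p0-1 and missed the threshold (log2 change 4.82, adjusted p = 0.0108).

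Nkx6-2, which shares repressor function with Nkx6-1, ran 382 to 1999 (median 1069) in p3 and 0 to 268 (median 37.5) in p0-1 without overlap (log2 change 6.01, SE 0.92, adjusted p = 1.54e-04). Olig1, the neighbour of Olig2, read 0 to 434 (median 107) in p3 and 0 in all 12 p0-1 libraries (adjusted p = 0.0122). It just missed the threshold and is not counted as called.

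The proximal promoters of the factors at both ends are shown because these genes were all but absent from the opposite type. Each run holds the 250 bases before the annotated RefSeq start, 5′ to 3′ on the gene's strand, build GRCm38.p6. Capitals mark a match to the NKX2 core TNAAGTG on either strand, which was present in 9.0% of the 10755 tested genes with a promoter entry, in 5 of the 65 higher genes with one and in 4 of the 30 lower genes.
Nkx2-9 (chr12:56613285-56613534, minus strand): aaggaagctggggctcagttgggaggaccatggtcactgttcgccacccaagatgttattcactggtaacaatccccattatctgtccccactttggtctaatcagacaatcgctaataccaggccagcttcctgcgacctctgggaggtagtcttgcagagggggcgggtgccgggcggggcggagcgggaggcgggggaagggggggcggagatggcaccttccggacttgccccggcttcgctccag
Nkx2-2 (chr2:147186403-147186652, minus strand): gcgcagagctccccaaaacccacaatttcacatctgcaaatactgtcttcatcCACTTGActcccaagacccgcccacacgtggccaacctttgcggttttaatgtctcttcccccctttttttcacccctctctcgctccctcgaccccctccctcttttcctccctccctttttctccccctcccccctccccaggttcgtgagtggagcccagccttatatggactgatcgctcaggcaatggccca
Dbx1 (chr7:49636836-49637085, minus strand): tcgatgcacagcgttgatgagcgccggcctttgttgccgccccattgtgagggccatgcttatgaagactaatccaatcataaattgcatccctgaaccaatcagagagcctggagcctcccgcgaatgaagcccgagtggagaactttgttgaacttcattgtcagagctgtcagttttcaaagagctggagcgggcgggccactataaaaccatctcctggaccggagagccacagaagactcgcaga
The Nkx2-2 window held 1 match, from base -197 to -191 before the start, and the Nkx2-9 and Dbx1 windows held none. None of the 3 windows held the GLI binding motif GACCACCCA, the FOXA core TGTTTAC or the homeodomain core TAATTA. Over all called genes with an entry, the GLI motif was in 0 of 65 higher and 0 of 30 lower windows (0.223% of tested genes) and the FOXA core in 1 and 0 (2.58%). The motifs were chosen after the changes were known, and letters in a window say nothing of binding.

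The intermediate factors moved the other way: of 10, all tested, 7 fell in p3 and none rose, with a median of -2.71. Pax6 among them was a gate. Dbx1 (chr7:49631499-49636835), the homeobox gene of p0 progenitors, read 0 in all 11 p3 libraries and 917 to 3475 (median 2259.6) in p0-1, so it was at least 875-fold lower in p3 (adjusted p = 8.40e-14).

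Prdm12, a PRDM-family factor of p1 progenitors, was also 0 in every p3 library and 0 to 997 (median 192) in p0-1. It was at least 124-fold lower (adjusted p = 1.77e-04). Prdm16, a chromatin regulator of the same family, read at most 2.64 in p3 and 0 to 439 (median 85.5) in p0-1, at least 46.9-fold lower (adjusted p = 7.84e-04). Unlike Dbx1, both overlapped, since single p0-1 libraries were at 0.

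The Iroquois factors did not behave alike. Irx3, which opposes Olig2 at the boundary of p2 and pMN, ran 271 to 1676 (median 551) in p3 and 1516 to 3362 (median 2322) in p0-1 (log2 change -1.77, SE 0.26, adjusted p = 1.03e-04), and Irx5 fell by 1.49 on the log2 scale (adjusted p = 2.48e-04). Both were still read in every p3 library. Irx1, at 0 to 144 (median 31.1) in p3 and 0 to 65.9 (median 13.1) in p0-1, was not called, and the 95% interval of its difference, -1.55 to 2.88, did not reach the change of Irx3. Irx2 was not called either, at 0.729 to 631 (median 115) in p3 and 0 to 385 (median 81.4) in p0-1.

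Sp8, a zinc-finger factor of the intermediate neural tube, ran 70.2 to 1219 (median 509) in p3 and 1353 to 3170.1 (median 1954) in p0-1 without overlap (log2 change -2.13, SE 0.35, adjusted p = 3.71e-04). Dbx2, which spans more of the intermediate tube than Dbx1, read 0 to 42.1 (median 0) in p3 and 0 to 312 (median 21.5) in p0-1 and was not called (log2 change -3.29, 95% interval -5.61 to -0.96, adjusted p = 0.132).

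Of 17 dorsal factors only 8 reached the minimum mean, and 1 of these, Prdm13, fell. Prdm13, which steers inhibitory fate in the dorsal horn, read at most 0.929 in p3 and 0 to 487 (median 144) in p0-1, at least 56.4-fold lower (adjusted p = 9.12e-04). The list's median was -1.37. Gsx1 and Msx3 were at 0 in all 23 libraries, and Pax3 is taken up with the SAG concentrations below.

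**Figure D2:**
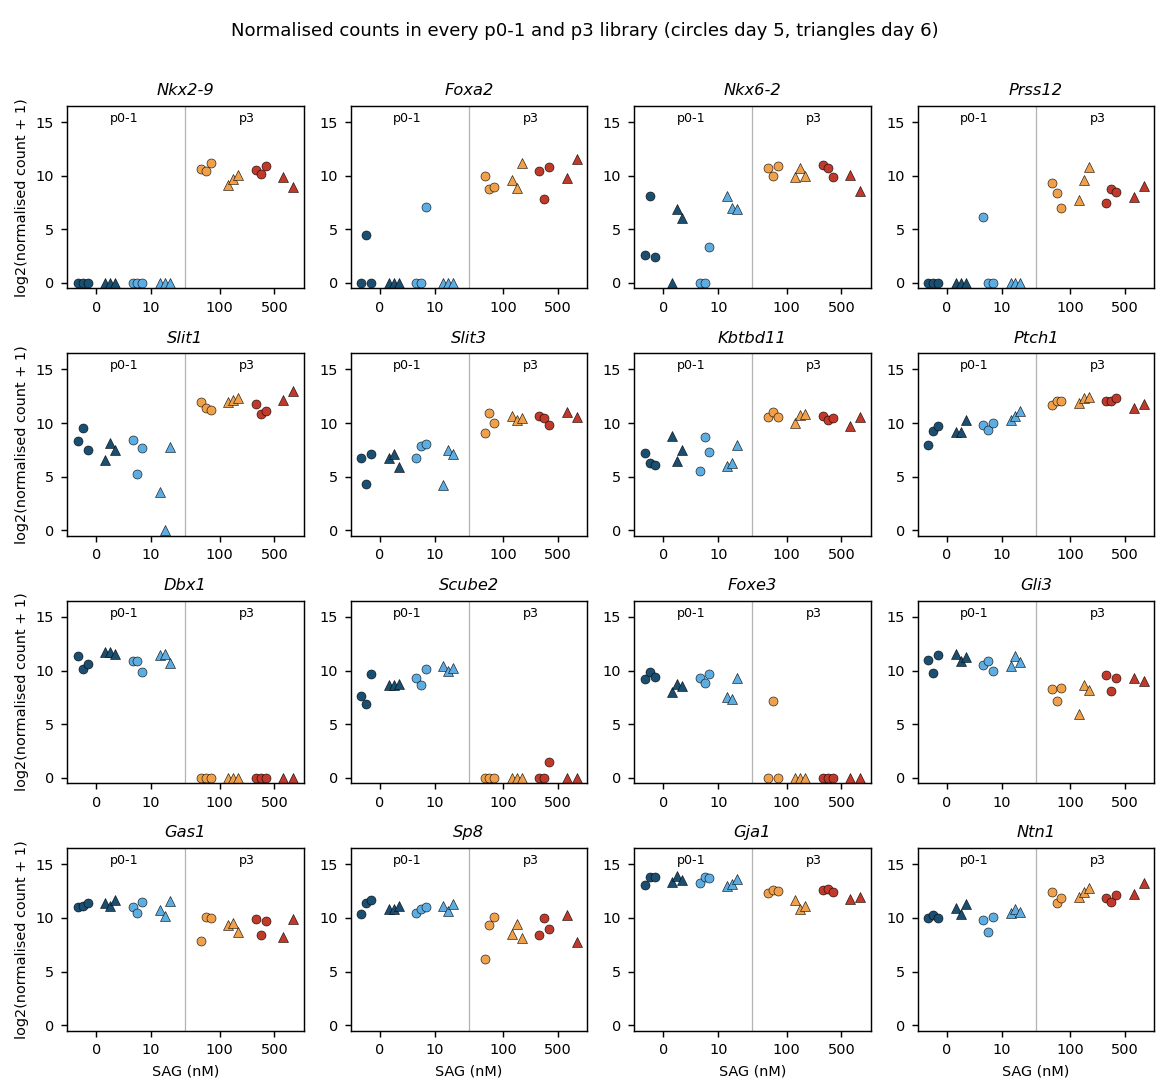
Each panel is a gene and each point a library, with the SAG concentration in nM on the x axis, log2(normalised count + 1) on the y axis, circles for day 5 and triangles for day 6. The p3 points of Nkx2-9 lie between 505 and 2394 counts over p0-1 points at 0, and those of Dbx1 at 0 under p0-1 points between 917 and 3475.

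Of 14 floor plate genes 11 were tested, 5 rose in p3, none fell, and the median was 3.90. The floor plate is the ventral midline organiser, and it shares Foxa2 with early p3. Shh itself (chr5:28456840-28467101), the ligand, ran 0.88 to 1335 (median 250.1) in p3 and 0 to 30.5 (median 0) in p0-1 (log2 change 6.81, SE 0.99, adjusted p = 7.81e-05). All but 1 of the p0-1 libraries were at 0. The p3 libraries spread widely, from under 10 counts in replicate 2 of each SAG concentration on day 5 to the highest in replicate 3 at 500 nM on day 6, and the ranges overlapped.

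Foxa2 in those same p3 libraries was also lowest in replicate 2 at 500 nM on day 5 and highest in replicate 3 at 500 nM on day 6. All 11 tested floor plate genes had a change above 0, 10 of them at an unadjusted p below 0.05 by limma. EdgeR and DESeq2 called 6 each. The 3 members below the minimum mean were sparse. Lmx1a did not exceed 1.8 counts in any of the 23 libraries, and Corin and Ferd3l were at 0 in all p0-1 libraries and at a median of 0 in p3. How many floor plate cells the p3 gate held was not tested.

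The secreted proteins of this list were the abundant part of it. Ntn1, which encodes the chemoattractant netrin-1, ran 2649 to 9795 (median 4552) in p3 and 419 to 2493 (median 1252) in p0-1 without overlap (log2 change 1.92, SE 0.18, adjusted p = 1.07e-07). Slit1 (chr19:41600257-41743856), a midline repellent acting through Robo receptors, ran 1882 to 8301 (median 3967) in p3 and 0 to 736 (median 193) in p0-1 (log2 change 5.1, SE 0.73, adjusted p = 6.76e-05). The p3 libraries of Slit1 all lay above the p0-1 libraries.

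Slit2 was not called, at 0 to 2293 (median 400.5) in p3 and 0.758 to 1493 (median 208) in p0-1. Spon1, the matrix protein F-spondin, rose by 2.03 (adjusted p = 0.00663), but the call was lost on leaving out any of 17 of the 23 libraries, with adjusted p up to 0.0174.

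**Figure D3:**
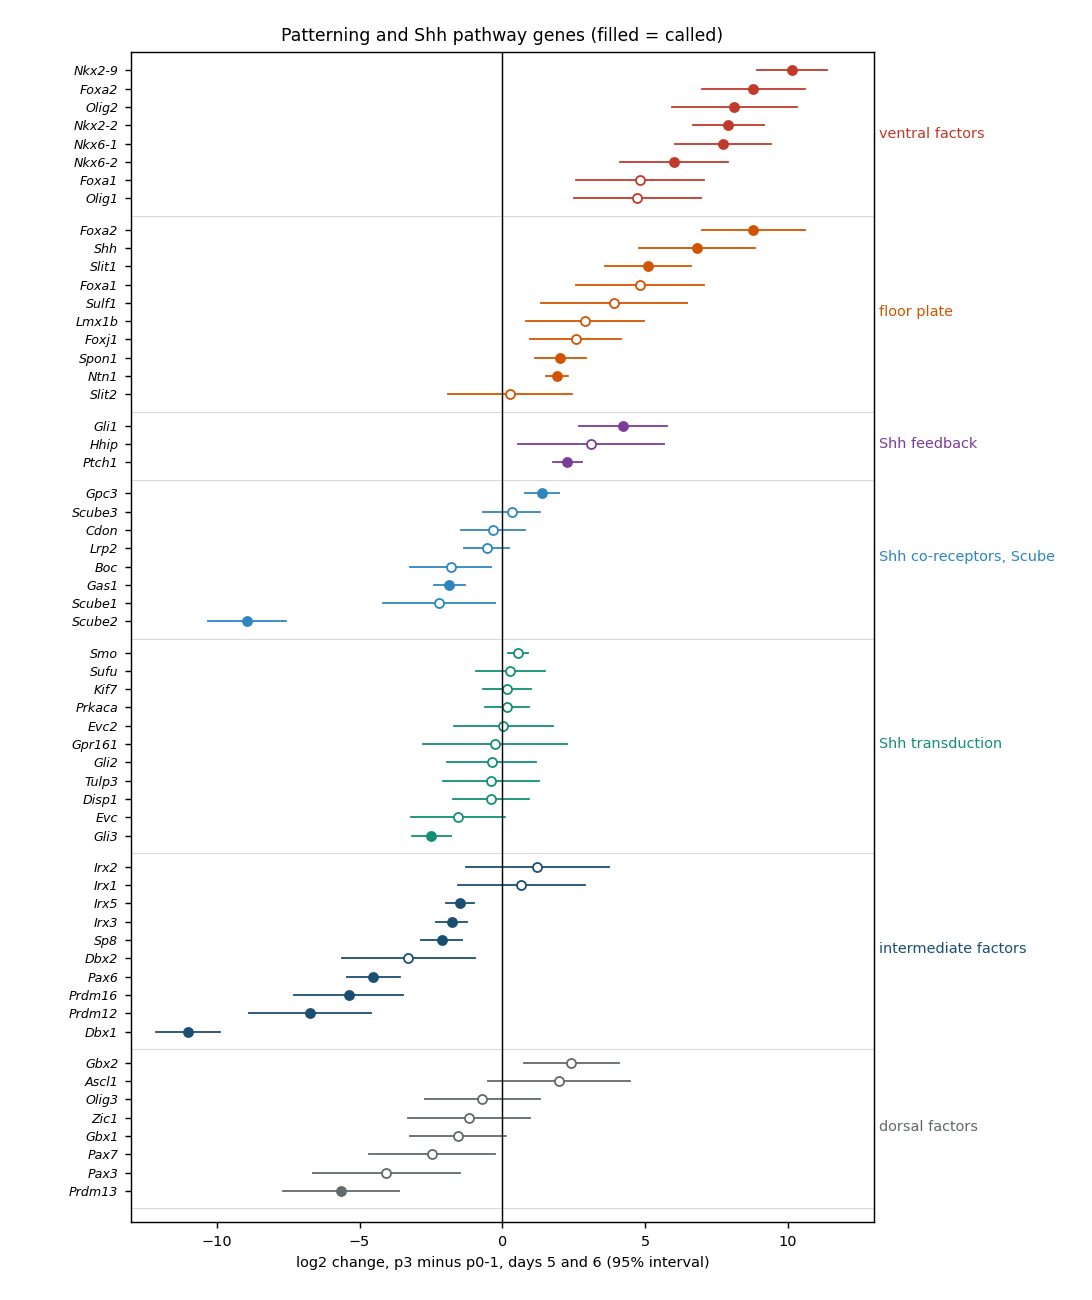
Log2 change of p3 minus p0-1 on the x axis for tested members of 7 gene lists on the y axis, with points for the estimate, lines for its 95% interval and filled points for called genes. The 8 ventral factors all lie right of 0, the 5 called floor plate genes too, and the 7 called intermediate factors left of it.

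Ptch1 and Gli1, which Shh signalling switches on, rose in p3, which had also been given more SAG. Ptch1 (chr13:63508328-63573460), the Shh receptor and a direct GLI target, ran 2801 to 5452 (median 4238) in p3 and 253 to 2305 (median 889) in p0-1 (log2 change 2.28, SE 0.25, adjusted p = 6.05e-07). Every p3 library was above every p0-1 library.

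Gli1, an activator transcribed only when the pathway is on, ran 202 to 1953 (median 969.9) in p3 and 0 to 296 (median 73.8) in p0-1 (log2 change 4.21, SE 0.75, adjusted p = 0.00116). The ranges of Gli1 overlapped between the types. Hhip, which binds and sequesters the ligand, read 0 to 919.6 (median 259) and 0 to 335 (median 62.5) and was not called (log2 change 3.10, 95% interval 0.54 to 5.65, adjusted p = 0.221).

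Genes that help cells receive Shh moved unevenly, and of 8 coreceptor and Scube genes 1 rose and 2 fell, with a median of -1.17. Gas1 (chr13:60174405-60177535), a coreceptor that is repressed as signalling proceeds, ran 225 to 1057 (median 743) in p3 and 1155 to 3182 (median 2222) in p0-1 without overlap (log2 change -1.86, SE 0.27, adjusted p = 6.76e-05). Scube2 (chr7:109798691-109865679), which releases lipid-modified Shh from the cells that make it, was at most 1.72 in p3 and 118 to 1327 (median 535) in p0-1. It was at least 259-fold lower in p3 (adjusted p = 6.38e-10), in every one of 11 against 12 libraries.

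Neither of its relatives was called: Scube1 differed by -2.23 (-4.19 to -0.27) and Scube3 by 0.32 (-0.67 to 1.32). The coreceptors Boc (-1.80, adjusted p = 0.191) and Cdon (-0.33, 0.831) were not called either. Gpc3, a glypican, rose by 1.39 (adjusted p = 0.00566) and lost its call without any of 12 libraries (adjusted p up to 0.0146).

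Of 11 signal transduction genes 1 was called, and the median of -0.26 was close to that of all genes. Gli3 (chr13:15463723-15730025), the main GLI repressor, ran 60.3 to 774 (median 322) in p3 and 887 to 3028 (median 1927) in p0-1 without overlap (log2 change -2.49, SE 0.34, adjusted p = 3.53e-05). Its change within each SAG pair alone just missed the threshold (adjusted p = 0.0106 for 10 against 100 nM and 0.0113 for 0 against 500 nM). Smo, the target of SAG, was higher in p3 by 0.55 (0.20 to 0.91; adjusted p = 0.0823), an interval that leaves out a 2-fold difference. Gli2, at 0.929 to 339 (median 126) in p3 and 24.3 to 427 (median 124) in p0-1, was not called.

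Dbh, the noradrenaline-making enzyme, was named after its values were seen. It read 0 to 449 (median 135) in p3 and 0 in all 12 p0-1 libraries, at least 49.8-fold higher (adjusted p = 3.73e-04), although 2 p3 libraries were at 0.

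Of 14 motor neuron and V2 genes 8 were tested, 1 rose and the median was 2.89. Slc18a3, the vesicular acetylcholine transporter, read 0 to 829 (median 169.8) in p3 and 0 to 43.2 (median 0) in p0-1 (log2 change 5.69, SE 1.16, adjusted p = 0.00471). It lost the call without p3 replicate 1 or 3 at 100 nM or replicate 1 at 500 nM on day 6 (adjusted p up to 0.0113) and under edgeR (0.0378). Isl1, a motor neuron homeobox gene, read 0 to 1196 (median 74.3) in p3 and 0 to 127 (median 0) in p0-1 and just missed the threshold (log2 change 4.54, adjusted p = 0.0118). The summed level of the list ran 1.8 to 3016 in p3 and 9.8 to 285 in p0-1, and the part of motor neuron RNA in these values was not tested.

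Hox genes set position along the head-to-tail axis. Of 39, 20 were tested, 2 fell, none rose, and the median was -0.77. Hoxb3 fell by 1.35 on the log2 scale, from 1130.4 to 3572 (median 1779) in p0-1 to 279 to 1315 (median 852) in p3 (adjusted p = 1.54e-04), with an antisense gene, Hoxb3os, over part of it. Hoxd4 fell too (log2 change -1.74, adjusted p = 0.0079), but lost its call without any of 19 libraries (up to 0.0199). Hoxd3, read at 1563 to 4453 (median 3470.1) in p3 and 2073 to 3630.1 (median 2762) in p0-1, was not called.

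Beyond Ntn1 and Slit1, the axon guidance list of 47 genes, 46 of them tested, held 1 more gene that rose and 1 that fell, with a median of -0.18. Slit3 (chr11:35121456-35708507) ran 541 to 2120.0 (median 1448) in p3 and 18.2 to 273 (median 123) in p0-1 without overlap (log2 change 3.73, SE 0.42, adjusted p = 1.47e-06). Dcc, the receptor through which netrin-1 attracts axons, went the other way: it read 0 to 25.5 (median 0) in p3 and 0 to 419 (median 177) in p0-1 (log2 change -6.34, SE 0.92, adjusted p = 8.01e-05). So the ligand Ntn1 and its receptor Dcc were highest in opposite types, though edgeR alone did not call Dcc (adjusted p = 0.0151).

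Among 15 cadherins and protocadherins, 13 tested, Pcdh19 fell (log2 change -4.48, adjusted p = 0.00508) and no other was called. Its call was lost under edgeR (0.131) and DESeq2 (0.0167) and without p0-1 replicate 3 at 0 or 10 nM on day 5, p0-1 replicate 1 at 0 nM on day 6 or p3 replicate 3 at 100 nM on day 6 (up to 0.0115). Cdh2, N-cadherin, was measured tightly, at -0.37 (-0.70 to -0.04).

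Several called genes encode parts of the extracellular matrix or the cell surface, and the ones that follow were named after their values were seen. Col18a1 (chr10:77052179-77166530), a basement membrane collagen, ran 10545 to 24233 (median 15457) in p3 and 3648 to 7256 (median 5402) in p0-1 without overlap (log2 change 1.62, SE 0.13, adjusted p = 3.56e-09). Col4a1, a chain of collagen IV, ran 1231 to 4745 (median 2409) against 127 to 1461 (median 878) (log2 change 1.72, adjusted p = 0.00194). It shares a divergent start region with Col4a2, whose reads can cross into it.

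Vtn, vitronectin, spread over the widest range of these, 1.76 to 4686 (median 801) in p3 against 0 to 199 (median 0) in p0-1 (log2 change 8.19, adjusted p = 5.79e-05), and edgeR did not call it (0.0118). Frem1, another basement membrane protein, ran 138 to 1208 (median 545) in p3 and 0 to 169 (median 0) in p0-1 (log2 change 6.83, adjusted p = 7.12e-05; edgeR 0.0185). Timp3, a matrix-bound inhibitor of metalloproteinases, ran 509 to 4099 (median 2732) and 0 to 528 (median 191) (log2 change 3.68, adjusted p = 0.002).

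Fat4, a giant cadherin of planar polarity, fell: it read 0 to 116 (median 7.43) in p3 and 31.9 to 2387 (median 1178) in p0-1 (log2 change -5.94, SE 0.81, adjusted p = 3.74e-05). Celsr1, a core planar polarity receptor, rose (log2 change 1.57, adjusted p = 8.19e-04). Both had overlapping ranges.

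Among the remaining genes without overlap, named by the rule for the largest changes, the higher ones were of mixed function. Prss12, a neural serine protease, ran 129.8 to 1759 (median 364) in p3 and 0 to 69.7 (median 0) in p0-1 (log2 change 8.09, SE 0.81, adjusted p = 1.79e-07). Kbtbd11 ran 848 to 2065 (median 1518) against 44.6 to 456 (median 115) (log2 change 3.48, SE 0.36, adjusted p = 3.41e-07). Igfbp5, a binding protein of insulin-like growth factors, ran 804 to 3917 (median 1051) against 80.8 to 441 (median 221) (log2 change 2.66, SE 0.34, adjusted p = 1.03e-05).

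Olfml3, a secreted olfactomedin-like protein, rose by 6.37 (adjusted p = 2.08e-04) and Adamtsl1, a secreted matrix protein, by 6.26 (2.08e-04). P2rx3, an ATP-gated channel, rose by 4.64 (0.0028). None of these 3 was called by edgeR, with adjusted p of 0.0113, 0.0123 and 0.0394. Ckb, brain creatine kinase, was outside the rule's count and was added after its value was seen: it ran 8488 to 18658 (median 13765) in p3 and 1827 to 6954 (median 4190.3) in p0-1 (log2 change 1.76, SE 0.15, adjusted p = 8.08e-09), an abundant gene with a small standard error.

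On the lower side, Foxe3, a forkhead factor best known from the lens, ran 0 to 145 (median 0) in p3 and 165 to 903 (median 509) in p0-1 (log2 change -8.19, SE 0.80, adjusted p = 1.42e-07). Gja1, the gap junction protein connexin 43, was an abundant gene on this side, at 1858 to 6619 (median 4993) in p3 against 8186 to 14955 (median 12133) in p0-1 (log2 change -1.48, SE 0.15, adjusted p = 3.41e-07). Cers6, a ceramide synthase, ran 140.0 to 826 (median 330.4) against 1010.2 to 2494 (median 1718) (log2 change -2.12, SE 0.27, adjusted p = 1.03e-05).

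Map7, a microtubule-associated protein, fell by 4.34 on the log2 scale (adjusted p = 0.00213) and Phlda1 by 2.90 (0.00292). Both separated the types without overlap, and neither was called by edgeR (0.0196 and 0.0118).

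Of 12 neural progenitor genes 1 was called and the median was -0.05. That gene was Rfx4, a ciliogenic factor of the neural tube, at 1895 to 7870.2 (median 3357) in p3 and 624 to 2577 (median 1584) in p0-1 (log2 change 1.34, adjusted p = 3.07e-04). The summed level of the 12 ran 18970 to 31495 in p3 and 21230.1 to 30689 in p0-1.

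Of 16 general neuron genes, Elavl4, an RNA-binding protein of neurons, rose (log2 change 2.34, adjusted p = 0.00405) and the median was -0.39. The 16 went both ways, 7 above 0 and 9 below, with 5 at an unadjusted p below 0.05, and those not called ran from -2.79 to 2.26. Of the 16, edgeR called 0 and DESeq2 called 3. The median of 7 tested proneural factors was 0.09 and none was called by limma, edgeR or DESeq2 (2 at an unadjusted p below 0.05). The summed level of the neuron genes ran 2238 to 7324 in p3 and 859 to 7034 in p0-1. Of 3 tested V0 and V1 neuron factors none was called by any of the 3 tools (1 at an unadjusted p below 0.05), and none of 3 V3 factors reached the minimum mean.

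The Notch list of 18 had 3 called genes, all higher, and a median of 0.87. Hey1, a Notch effector, read 202 to 1333 (median 607) in p3 and 0 to 252 (median 46.6) in p0-1 (log2 change 5.05, adjusted p = 0.00232; edgeR 0.0196). Notch2, a receptor, ran 1549 to 5657 (median 2216) and 486 to 1863 (median 1127) (log2 change 1.19, adjusted p = 8.48e-04). Hes1, the other effector, rose by 1.45 (adjusted p = 0.00604) and lost its call without any of 10 libraries (up to 0.015). Hes5 was not called, at -0.42 (-1.01 to 0.17).

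No gene was called by limma in the Wnt list (21 tested, median -0.90, 10 at an unadjusted p below 0.05), the BMP list (16 tested, median -0.44, 3), the RA list (11 tested, median -0.14, 3), the gliogenic list (8 tested, median 0.59, 2) or the cell cycle list (30 tested, median 0.12, 9). Of all tested genes 14.7% were at an unadjusted p below 0.05, a share that each of these 5 lists exceeded, the Wnt list most. The lack of calls is therefore no finding of no difference. Over these 5 lists edgeR called 0 genes and DESeq2 called 1, a Wnt receptor. Crabp2, a retinoic acid binding protein, had a small adjusted p (0.00194) at a change under 2-fold, -0.61 (-0.84 to -0.37). Sfrp1, a secreted Wnt inhibitor, differed by 0.57 (adjusted p = 0.018) and Sfrp2 by -0.90 (0.0525), in opposite directions. Mki67 differed by -0.19 (-0.48 to 0.10) and Top2a by -0.16 (-0.38 to 0.05). For these proliferation markers a 2-fold difference was outside the interval.

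A set of genes known as targets of the amino-acid and unfolded-protein stress factor ATF4 was noticed after the values were seen, and is given as a description. Chac1, which degrades glutathione, ran 58.4 to 1102 (median 259.7) in p3 and 0 to 466 (median 0) in p0-1 (log2 change 5.79, adjusted p = 0.00367). Asns, asparagine synthetase, rose by 1.57 (adjusted p = 0.00838), Herpud1, which acts in the removal of misfolded proteins, by 1.05 (0.00351), and Gpt2, an alanine aminotransferase, by 2.28 (0.00116). Gpt2 alone of these 4 was called in all 23 fits that left out a library and by both count tests. Chac1 was called neither by edgeR (0.219) nor by DESeq2 (0.174), Asns lost its call without any of 19 libraries (up to 0.0212), and Herpud1, near 2-fold, fell under it without p0-1 replicate 3 at 0 nM, p3 replicate 1 or 3 at 100 nM or p3 replicate 1 at 500 nM, all of day 5.

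Atf4 itself, at 1038 to 1922 (median 1186) in p3 and 621 to 1385 (median 867) in p0-1, was not called (log2 change 0.47, 95% interval 0.10 to 0.84, adjusted p = 0.184), and none of the 7 listed stress genes, Ddit3 and Atf3 included, was called by limma, edgeR or DESeq2 (0 at an unadjusted p below 0.05). The promoters of the 3 that carry the ATF4 response element TTNCATCA are shown, 250 bases each in the same build, with the match in capitals. The element was in 2.29% of the tested genes with an entry, on either strand, in 3 of the 65 higher genes and in 0 of the 30 lower ones. Gpt2 was not among the genes with a match. This motif too was chosen after the changes were known, and whether ATF4 acts on these genes was not tested.
Chac1 (chr2:119350992-119351241, plus strand): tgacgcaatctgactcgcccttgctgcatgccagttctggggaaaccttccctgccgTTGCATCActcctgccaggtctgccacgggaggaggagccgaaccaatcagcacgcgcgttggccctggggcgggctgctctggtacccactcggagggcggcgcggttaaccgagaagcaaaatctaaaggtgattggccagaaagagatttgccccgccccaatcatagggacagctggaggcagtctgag
Herpud1 (chr8:94386179-94386428, plus strand): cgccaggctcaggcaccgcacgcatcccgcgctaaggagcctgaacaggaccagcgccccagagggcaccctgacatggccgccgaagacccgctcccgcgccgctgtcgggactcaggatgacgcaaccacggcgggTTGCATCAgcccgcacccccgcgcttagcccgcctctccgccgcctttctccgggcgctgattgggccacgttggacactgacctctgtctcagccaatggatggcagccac
Asns (chr6:7693210-7693459, minus strand): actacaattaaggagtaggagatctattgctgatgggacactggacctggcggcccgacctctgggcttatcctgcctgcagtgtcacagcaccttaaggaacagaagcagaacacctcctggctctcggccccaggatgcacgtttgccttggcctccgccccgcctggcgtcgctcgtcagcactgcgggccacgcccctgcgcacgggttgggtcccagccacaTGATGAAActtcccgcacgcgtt
The match starts 193 bases before the start in Chac1, 112 in Herpud1 and 23 in Asns.

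Markers of cells outside the neural tube were compared as well. None of the 4 tested neural crest, 6 mesoderm, 2 endoderm, 2 pluripotency and 4 fibroblast markers was called by limma, with 1, 0, 1, 0 and 0 at an unadjusted p below 0.05. By edgeR the count was 0 as well and by DESeq2 it was 1. Sox10, Msgn1, Meox2, Foxc2, Pax1, Ttr, Afp, Zfp42 and Tdgf1 were at 0 in all 23 libraries. The summed neural crest level ran 3.72 to 711 in p3 and 104 to 903 in p0-1, the mesoderm level ran 1.8 to 388 in p3 and 27.3 to 735 in p0-1, the endoderm level 0 to 511 and 6.5 to 229, and the fibroblast level, which would also catch feeder cells, 18.2 to 349 and 6.4 to 663.

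Some called genes share ground with a gene on the other strand, and the library kit does not mark strand. Nkx2-2 with Nkx2-2os, Pax6 with Elp4, Nkx6-2 with Inpp5a, Gli1 with Arhgap9 and Shh with 9530036O11Rik overlap, so their reads cannot be assigned to 1 strand.

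Taking the days apart, 38 genes were called on day 5 (0.277%), 28 higher (0.204%) and 10 lower (0.073%), and 39 on day 6 (0.285%), 29 higher (0.212%) and 10 lower (0.073%). DESeq2 did not keep this balance, with 284 higher and 284 lower on day 5 and 178 higher and 272 lower on day 6. Leaving out p3 replicate 3 at 500 nM on day 6 left 11 calls there, 7 higher and 4 lower, and leaving out p0-1 replicate 2 at 10 nM on day 5 left 16 on that day. Of the 128, 35 were called on day 5, 37 on day 6 and 19 on both. These fits leave 5 or 6 libraries a type, and a gene called on 1 day is not thereby shown to differ between days. When the difference between days was tested, no gene passed by limma (519 at an unadjusted p below 0.05, 3.79%) or by edgeR, while DESeq2 gave 292.

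Nkx2-9 was higher in p3 by 10.66 on day 5 (SE 0.90) and by 9.53 on day 6 (SE 0.95), both called. Slit1 was higher by 3.59 (SE 0.82; adjusted p = 0.0393) and by 6.80 (SE 0.87; adjusted p = 1.43e-04). The difference between its days, 3.20 (SE 1.20), did not pass (adjusted p = 0.998).

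On day 4, which took no part in choosing or fitting the libraries above, 4 p3 libraries could be set against 5 p0-1 libraries. There, 5 of 13573 tested genes were called (0.0368%), all higher in p3: Igfbp5, Timp3, Nkx2-9, Ptch1 and Ckb. All 5 were also called on days 5 and 6. At an unadjusted p below 0.05 there were 1027. The p3 library of day 4 at 100 nM SAG, replicate 3, had 9718 genes detected, the fewest of all 65 libraries. The other p3 libraries of day 4 were at 500 nM. Leaving out p3 replicate 1, 2 or 3 at 500 nM left 2 calls each time, and leaving out p0-1 replicate 2 at 0 nM or replicate 1 at 10 nM left 3. The replicate block left 2 calls and genes detected as a covariate 3, all higher in p3. The direction depended on the fit: without the intensity trend 7 genes were higher and 16 lower, with DESeq2 26 and 52, and in a fit to all 65 libraries 35 and 805.

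Ptch1 ran 4994 to 10334 in p3 of day 4 and 349 to 1438 in p0-1 (log2 change 3.53, SE 0.41, adjusted p = 0.00425). Nkx2-9 ran 1601 to 4822 against at most 1.84 (adjusted p = 0.00213). Igfbp5 ran 2353 to 5659.9 against 121 to 284 (adjusted p = 4.58e-04). In all 5 the p3 libraries lay above every p0-1 library.

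Of the 128 genes, 120 were tested on day 4, and 67 of 81 higher and 37 of 39 lower ones had the same sign there, where 58.9% of all 12910 genes tested at both times had it. Among them 55 passed an unadjusted 0.05 with that sign. Dbx1 was already at 0 in all 4 p3 libraries and at 56.1 to 329.6 in p0-1 (adjusted p = 0.0856). Slit1 (log2 change 0.85), Kbtbd11 (0.26) and Prss12 (1.07) stood closer together on day 4 than later, with adjusted p of 0.639, 0.921 and 0.877; the difference from days 5 and 6 was not tested.

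**Figure D4:**
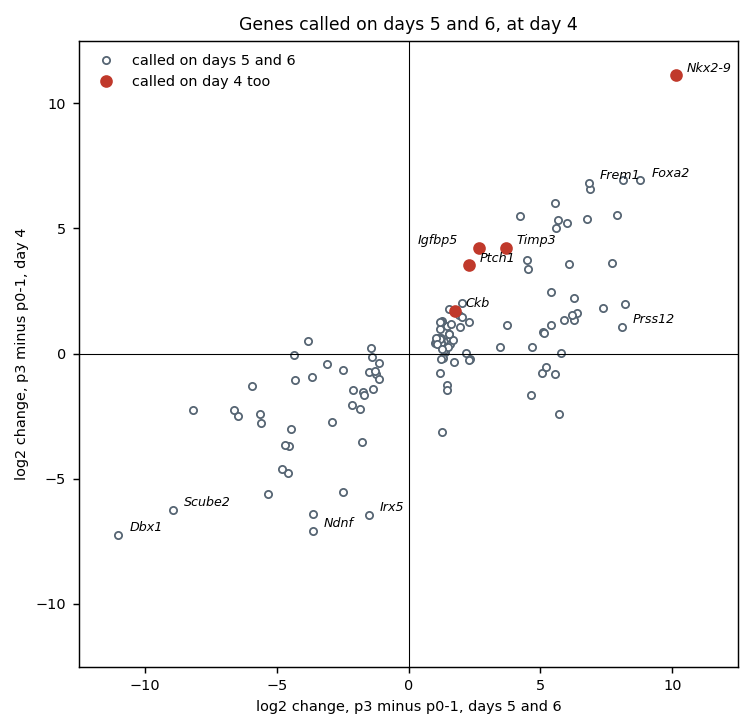
Each point is a gene called on days 5 and 6 and tested on day 4, with its log2 change of p3 minus p0-1 on days 5 and 6 on the x axis and on day 4 on the y axis; red points were called on day 4 too. Most points lie at the lower left and the upper right, 67 of 81 to the right and 37 of 39 to the left.

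Within a type, SAG concentration was tested jointly as 500 against 100 nM in p3 and 10 against 0 nM in p0-1, and 2 genes were called (0.0146%), with 784 at an unadjusted p below 0.05. Pax3, a paired-box factor of the dorsal tube, read 133 to 762 in the 6 p0-1 libraries at 0 nM on days 5 and 6 and 0 in the 6 at 10 nM and in all 11 p3 libraries (log2 difference of 10 minus 0 nM -8.14, adjusted p = 7.68e-05). On day 4 it did not split this way: it read 52.5 and 35.6 in the p0-1 libraries at 0 nM, and 0, 0 and 50.6 in those at 10 nM. Over all p0-1 libraries of days 5 and 6 its change to p3 was therefore mixed, at -4.06 (-6.64 to -1.48; adjusted p = 0.0838).

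Nab2, a corepressor of EGR factors, was read on days 5 and 6 only at the ends of the dose range, at 9.92 to 65.4 counts in p0-1 without SAG and 25.8 to 106 in p3 at 500 nM, and was 0 in all 12 libraries at 10 and 100 nM (adjusted p = 5.65e-04). On day 4 it was also read in p0-1 at 10 nM, at 15.6 to 62.7 counts in the 3 libraries, beside 16.4 and 70.0 at 0 nM. It overlaps Stat6 on the other strand. By edgeR no gene passed this test and by DESeq2 10 did. Between the SAG concentrations, then, few genes could be told from the spread at this depth, with 5 or 6 libraries per concentration and type.

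The 2 types sorted between p3 and p0-1 show where along the range each called gene lay. They were pMN (11 libraries of days 5 and 6, from 100 or 500 nM SAG as for p3) and p2 (12, from 10 or 100 nM). A position was computed from the mean log2 values, 0% being the p0-1 mean and 100% the p3 mean, as a description of genes chosen for their difference between those ends. For the 86 higher genes pMN stood at a median of 49.0% and p2 at 25.6%. For the 42 lower genes pMN stood at 67.6% and p2 at 33.8%. Among the lower genes 33 of 42 were nearer p3 than p0-1 in pMN, against 42 of 86 higher genes. These position counts were not set against the share over all tested genes.

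For 42 of the 86 higher genes both intermediate types were nearer p0-1. Slit1 stood at 5.63% in pMN and 3.3% in p2, Ntn1 at -8.17% and 8.16%, and Foxa2 at 34.4% in pMN with a p2 mean near that of p0-1.

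In the Shh targets pMN lay at or past the p3 mean: Ptch1 stood at 105% in pMN and 66.5% in p2, and Gli1 at 116% and 88.8%. Dbx1 stood at 87.9% in pMN and 67.3% in p2, closer to p3 in both. Prdm12 was at 0 in all 11 pMN libraries, as in p3. Scube2 was at 69.6% in pMN and 18.4% in p2. In both intermediate types 28 higher and 12 lower genes were nearer p3.

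**Figure D5:**
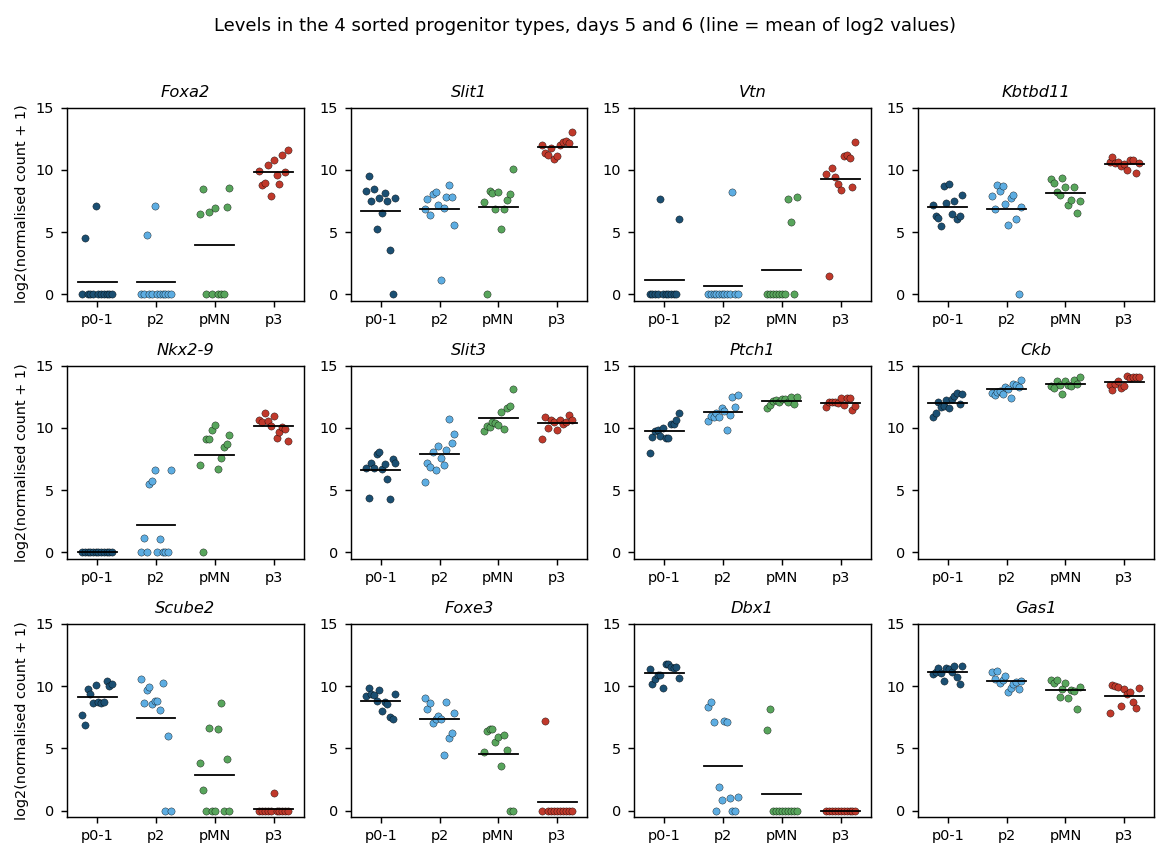
Each panel is a gene, with the 4 sorted types on the x axis, log2(normalised count + 1) on the y axis, a point for each library of days 5 and 6 and a line at the mean of the log2 values. For Foxa2, Slit1, Vtn and Kbtbd11 the means of pMN and p2 lie nearer p0-1 than p3, for Nkx2-9, Slit3, Ptch1 and Ckb the pMN mean lies nearer p3, and Dbx1 is at 0 in p3.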

How the data were processed

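CaTS-RNA-seq libraries were made with SMART-Seq HT and Nextera XT after fixation, sorting and spike-in of ERCC RNA. Per the study's methods, reads were run through an nf-core pipeline with STAR, aligned to mm10 with the ERCC sequences, left duplicates out and were counted with featureCounts over gene annotation; libraries that failed quality control were removed. The strand setting of the counting is not given in the sources used here. The deposited values are a signal per gene, read counts that the authors divided by a size factor per library. Whole reads could be recovered for 100.0% of values above 0 (within 0.001 of a whole number).

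Genes with a mean of at least 10 over the libraries of a fit were tested with limma 3.58.1 (R 4.3.3, intensity trend) on log2(value + 1), so changes of low genes are understated. The fit for days 5 and 6 had terms for day and type; a fit of 8 group means gave the values per day, their difference and the SAG tests; day 4 had its own fit. Calls need a Benjamini-Hochberg adjusted p below 0.01 and over 2-fold. On the recovered reads edgeR 4.0.16 called 89 genes and DESeq2 1.42.0 called 253. Fold bounds for genes with at most 3 reads in every library of a type use 3 reads per library as a floor, which covers counting error only. No replicate pair held identical values, and 0 columns belonged to no sample. The code was tested on simulated data. Promoters are RefSeq sequences, which were found for 65 of 86 higher and 30 of 42 lower genes, and gene positions come from the mm10 annotation deposited with the series.

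Cell types, libraries, gene lists and motifs were chosen with earlier results of these data known. Genes named are all members of the sort, patterning, floor plate and Shh lists; up to 15 called genes per direction with the largest changes, a mean of at least 100 in one type and no overlap; up to 4 called or 3 abundant members of every other list; and up to 5 genes for the day and SAG tests. Others are said to be chosen after their values were seen. Some genes that these rules name are not reported here. Alternatives changed the pseudocount, the minimum mean, the scaling, the weights, the tool, the libraries and the covariates.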

Additional observations from a re-analysis of the deposited data

Results flagged for a closer look

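Among the genes named, the highest p0-1 library of day 4 stood apart from the others of its group for Nkx2-9, at 1.84 normalised counts where the other 4 libraries were at 0. The gap to the next library is the whole range of the group. The p3 libraries of day 4 held 1601 to 4822 counts of the gene. The 1.84 counts are 2 reads of that library, under the floor of 3 reads, and with the other 4 at 0 any read would stand apart in this way.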

How the results depend on the processing

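Of 2992 values of named genes under alternatives, 2752 kept direction and side of the threshold, 205 lost their call, 34 gained one and 1 turned. With 128 genes called on days 5 and 6, array weights gave 194, DESeq2 253, a fit to all 65 libraries 199, 10 against 100 nM SAG alone 15 and 0 against 500 nM alone 42; leaving out a library gave 107 to 135. The last 2 settings were added after the data were seen, as was leaving out the 2 libraries with few genes. They hold fewer samples, and 10 against 100 nM alone moved the median of all genes to -0.24. EdgeR gave 89, of which 83 were among the 128, and DESeq2 shared 114. Day 5, 38 by limma, had 21 with edgeR, 568 with DESeq2 (284 higher, 284 lower) and 88 with all libraries; leaving out a library gave 16 to 41, with 20 and 16 without p0-1 replicates 1 and 2 at 10 nM and 17, 25 and 24 without p3 replicates 1, 2 and 3 at 500 nM. Day 6, 39 by limma, had 63 with a pseudocount of 10, 59 with quantile scaling, 65 with array weights, 450 with DESeq2 (178 higher, 272 lower) and 73 with all libraries; leaving out a library gave 11 to 48, with 23 and 11 without p3 replicates 1 and 3 at 500 nM. The difference between days had 3 genes with no minimum mean, 292 with DESeq2 and otherwise 0. Day 4, 5 by limma, had 3 with no minimum mean, 23 without the intensity trend, 78 with DESeq2 (26 higher, 52 lower), 3 with genes detected as covariate and 840 with all libraries (35 higher, 805 lower); leaving out a library gave 2 to 5. The SAG test, 2 by limma, had 1 with a pseudocount of 10, 0 with a minimum mean of 100, 7 with none, 1 with quantile scaling, 0 with edgeR, 10 with DESeq2, 1 with the covariate and 5 with all libraries; leaving out a library gave 2 to 4, with 4 without p3 replicate 1 or 3 at 100 nM on day 6 or replicate 1 at 100 nM on day 5. Where no cause is named, the cause was not tested. With 0 against 500 nM SAG alone the log2 change of Top2a turned to 0.027, also not called.

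Replicate numbers were not taken as pairing the libraries in the main fit, since the labels do not say whether equal numbers mark the same differentiation. If they do, same-numbered libraries are not independent, and the p-values of the main fit rest on fewer independent units than libraries. Deviations from the group means had a median correlation of 0.03 over 77 same-numbered pairs and of -0.02 over 154 differently numbered pairs. Of the same-numbered pairs 4 were over 0.1, all of replicate 3, and of the others 0. Same-numbered libraries were thus slightly more alike. Deviations within a group sum to 0, so the 2 medians are not separate evidence. With the replicate block 145 genes were called on days 5 and 6, 126 of them among the 128, and 2 on day 4. Depth limits the low genes, and 2 p3 libraries of days 5 and 6 had fewer than 11000 genes detected, as had the p3 library of day 4 at 100 nM.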

Other observations

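Ccnd2, the D-type cyclin of many neural progenitors, had an adjusted p below 0.01 in the joint SAG test of both types but changed by less than 2-fold, so it is not among the 2 called genes. In p0-1 the 6 libraries at 0 nM, at 7212 to 9995 counts, lay below the 6 at 10 nM, at 14507 to 19036. In p3 the ranges overlapped, 11683 to 20716 at 100 nM and 7283 to 15597 at 500 nM, and a difference within p3 alone was not tested. The log2 difference of 500 minus 100 nM in p3 was -0.51 and that of 10 minus 0 nM in p0-1 was 0.95 (limma, adjusted p = 4.93e-04, joint test of the 2). The gene was named for its abundance in the cell cycle list.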
